A study of Mus musculus with 4 samples.

Results

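The coelomic epithelium is the sheet of cells that lines the body cavity and covers the early gonad. Its cells were picked out of the single-cell RNA sequencing libraries of mouse XY gonads at the embryonic days E10.5, E11.5 and E12.5. A cell was counted as coelomic epithelium when it held at least 1 unique molecular identifier (UMI, one captured mRNA molecule) of Upk3b and at least 1 UMI of the 4 partner genes Tm4sf5, Tmem151a, Myrf and Lhx9, fewer than 2 UMIs of Sox9, a Sertoli cell gene, and, at E10.5, no UMI of Nr5a1, a gene of gonadal somatic cells. This rule found 156 of 3837 cells at E10.5, 260 of 2101 at E11.5 and 240 of 2764 at E12.5, together 656 of 8702 cells of these libraries and of 10987 cells in the series. The cells were therefore chosen by their measured UMIs of 7 genes, and the values of those genes are given below as a description.

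The embryos were of the ICR strain, and the labels name no transgene or treatment. The sample titles give XY gonads although a protocol text speaks of female tissue; Ddx3y, Eif2s3y, Kdm5d or Uty, genes of the Y chromosome, were detected in 65.4%, 79.6% and 82.9% of the coelomic epithelial cells at the 3 stages, and none of these cells held a UMI of Xist. The dissections differed, since only the E10.5 library held tissue from beyond the gonad, a mesenchyme on its dorsal side, and the mesonephros was not part of the later libraries, so stage and dissection cannot be told apart. There was 1 library per stage, and the number of embryos behind each is not given in the sources used here. The series also holds a library of cells derived from embryonic stem cells, which enters only the cell total. With 1 library per stage no test between stages was possible. Levels are given as CPM, the UMIs of a gene summed over the cells of a group and scaled to 1000000 UMIs of all genes in that group, with an exact Poisson 95% interval; shares of cells carry an exact Clopper-Pearson 95% interval, and both cover counting error only.

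The coelomic epithelium is a mesothelium, an epithelium that combines keratins and surface glycoproteins with transcription factors of the intermediate and lateral plate mesoderm. In the genital ridge some of its cells divide, leave the surface and enter the gonad, where they give rise to supporting and interstitial cells. Uroplakin 3b, the product of Upk3b, is a membrane protein used as a mesothelial marker. Lhx9 is a LIM homeobox factor needed for gonad formation, Myrf is a membrane-bound transcription factor, Tm4sf5 is a tetraspan membrane protein, and Tmem151a is a transmembrane protein.

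The region upstream of Upk3b, the gene on which the choice of cells turned, is shown beside that of Krt18, the keratin with the highest ratio to the rest at E10.5. The windows run from 250 to 51 bases before the annotated start in RefSeq (GRCm38.p6, + strand), at chr5:136038246-136038445 for Upk3b and chr15:102027966-102028165 for Krt18. The RefSeq start of Krt18 lies downstream of the GENCODE start of the gene printed with its values, and for Upk3b they are the same. Capitals mark the only match, on the reverse strand, to GGAATG, the core bound by TEAD factors.
Upk3b: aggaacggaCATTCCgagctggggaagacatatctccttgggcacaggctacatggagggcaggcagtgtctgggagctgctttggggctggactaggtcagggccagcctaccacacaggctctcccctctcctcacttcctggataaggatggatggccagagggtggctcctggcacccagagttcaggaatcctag
Krt18: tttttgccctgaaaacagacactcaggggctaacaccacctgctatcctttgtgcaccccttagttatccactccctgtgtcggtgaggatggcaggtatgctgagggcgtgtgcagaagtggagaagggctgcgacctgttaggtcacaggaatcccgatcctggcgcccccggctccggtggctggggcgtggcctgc
Both strands were searched for GGAATG, which occurred in 10.7% of all 32851 promoter windows of 200 bases. The same search was made for AGATAA, the letters bound by GATA factors, found in 8.42% of windows, and for GCGTGGGAG, bound by WT1, found in 0.326%; none of these motifs contains another. The match in Upk3b began 241 bases before the start, and none of the motifs was found in the Krt18 window.

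The libraries differed in depth. The kept cells of the 3 libraries, in order of stage, held 32508523, 24625441 and 34173977 UMIs, of which 1476032, 3596218 and 3371154 were in the coelomic epithelium. The median coelomic epithelial cell held 9590.5, 13808 and 14190 UMIs at the 3 stages, against 8116, 11644 and 10780 in the rest of each library. The coelomic epithelium made up 4.07% (3.46 to 4.74), 12.4% (10.996 to 13.9) and 8.68% (7.66 to 9.80) of the cells of the libraries in order of stage. Thinning to 4000 UMIs before the rule was applied left out 383, 366 and 0 cells of the 3 libraries. Of the 3454, 1735 and 2764 thinned cells, the shares were 2.06%, 7.95% and 5.39%, in the same order. Among kept cells, 8 barcodes occurred in both the E10.5 and the E11.5 library, 15 in E10.5 and E12.5, and 7 in E11.5 and E12.5; 1 of them was a coelomic epithelial cell in both of its libraries.

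The genes of the rule described the cells unequally at the 3 stages. Upk3b (chr5:136038496-136046487, mm10, + strand) stood at 249 CPM (224 to 275), 234 (219 to 250) and 270 (252 to 288) in the coelomic epithelium, and at 10.47, 6.18 and 1.36 CPM in the rest. Lhx9 (chr1:138825186-138848577, - strand) stood at 94.2, 501 and 552 CPM at the successive stages and was found in 23.1%, 94.2% and 95.8% of the cells. Tm4sf5 (chr11:70505244-70511178, + strand) was nearly absent at E10.5, with 5.42 CPM in 4.49% of cells, and stood at 244 CPM in 81.2% at E11.5 and 158 CPM in 73.8% at E12.5. Myrf (chr19:10208272-10240748, - strand) was the usual partner at E10.5, found in 76.9% of cells there and in 56.5% and 69.2% later. Tmem151a (chr19:5070859-5085531, - strand) was found in 26.3%, 38.9% and 50.8% of cells. Accordingly 73.7% of the E10.5 cells had only 1 partner gene, compared with 12.3% at E11.5 and 10% at E12.5. Nr5a1, absent at E10.5 by the rule, stood at 28.4 CPM in 29.6% of cells at E11.5 and 22.8 CPM in 26.2% at E12.5. Endothelial cells of the same libraries (56, 54 and 43 cells with a median of 10284, 17827 and 17369 UMIs), which should lack these genes, held a UMI of Lhx9 in 0%, 18.5% and 16.3% of cells and of Nr5a1 in 0%, 25.9% and 16.3%, and of Tm4sf5, Tmem151a or Myrf in at most 4.65% each. The Nr5a1 share at E11.5 therefore lay close to this background. Of the 54 endothelial cells at E11.5, 1 also met the rule for coelomic epithelium.

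The cells on either side of the rule's border were compared as a description. Cells with at least 1 Upk3b UMI numbered 311, 308 and 257, of which 125, 15 and 6 had no partner gene and stayed outside. At E10.5 the 32 cells just inside, with 1 UMI of Upk3b and 1 of a partner, held 307 CPM of Aldh1a2, 407 of Krt18 and 150 of Wt1, close to the 306, 485 and 152 CPM of the 125 cells just outside for want of a partner. Krt19 (42.8 CPM inside and 109 outside) and Emx2 (104 and 74.6) lay further apart. At E11.5 the 13 cells just inside held 93.3 CPM of Aldh1a2 and the 15 outside 15.7, and at E12.5 the 8 inside held 43.9 and the 6 outside 138.9, so the order was not the same at the later stages. A further 59, 162 and 129 cells with at least 2 partner genes but no Upk3b UMI held 407, 110 and 128 CPM of Aldh1a2. The 24 cells left out at E10.5 for an Nr5a1 UMI held 430 CPM of Aldh1a2, 187 of Krt18 and 350 of Wt1.

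Aldh1a2, Krt18 and Krt19 set the coelomic epithelium apart from the rest of each library. A gene was counted as higher or lower when the ratio of CPM, after adding 10 CPM to both sides, passed 2-fold, among genes with at least 50 UMIs over both groups and at least 20 CPM in one of them; all ratios below are on this log2(CPM + 10) scale. By this count 58 of 5873 genes were higher (0.988%) and 65 lower (1.11%) at E10.5, 87 of 5948 higher (1.46%) and 209 lower (3.51%) at E11.5, and 152 of 6165 higher (2.47%) and 258 lower (4.18%) at E12.5. Of 23 mesothelial and simple epithelial genes, 9, 10 and 10 could be compared, of which 7 were higher and 2 lower at each stage, with median log2 ratios of 1.64, 1.53 and 1.91; the medians over all genes compared were 0.05, 0.04 and -0.03. The lists of genes were drawn up with earlier results of these data known.

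Aldh1a2 (chr9:71215789-71296243, + strand) encodes an enzyme that makes retinoic acid. It stood at 360 CPM (330 to 392) in the coelomic epithelium at E10.5, 233 (217 to 249) at E11.5 and 255 (238 to 273) at E12.5, against 94.4, 32.7 and 25.7 CPM in the rest, log2 ratios of 1.82, 2.51 and 2.89. A UMI of Aldh1a2 was found in 65.4%, 87.3% and 90.4% of coelomic epithelial cells and in 3.57%, 11.1% and 6.98% of the endothelial cells described above.

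The keratins, which form the intermediate filaments of epithelia, were not used alike. Krt18 (chr15:102028180-102032027, + strand) stood at 455 CPM (422 to 491) at E10.5, 69.8 (61.4 to 79.0) at E11.5 and 118 (107 to 130) at E12.5, 1.82, 1.22 and 1.75 above the rest on the log2 scale. Krt19 (chr11:100140810-100148665, - strand) stood at 114, 65.9 and 89.9 CPM, 1.76, 2.29 and 2.75 above the rest. Krt7 (chr15:101411043-101430313, + strand) was scarce at E10.5, with 5.42 CPM (2.34 to 10.7) in 3.21% of cells, and stood at 112 (101 to 123) in 51.9% at E11.5 and 140 (128 to 154) in 70% at E12.5; no endothelial cell held a Krt7 UMI at any stage. Krt8, the usual partner of Krt18, stood at 161, 36.1 and 39.2 CPM, and was 1.06 above the rest at E10.5 but only 0.22 and 0.35 above it later. Its level at E10.5 was 352 CPM in the 51 cells that held a UMI of Hand1 or Foxf1, described below, and 69.3 in the other 105, against 72.1 in the rest, so it was above the rest only in the former. Thus Krt18 and Krt8 had their highest levels at E10.5 and Krt7 its highest at E12.5.

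Other surface and adhesion genes were higher than in the rest at every stage. Podxl, an anionic surface sialomucin, stood at 52.2, 102 and 89.0 CPM, with log2 ratios of 1.72, 1.61 and 2.35. Lrrn4, a leucine-rich repeat membrane protein found in mesothelium, stood at 37.3, 45.9 and 49.8 CPM, with ratios of 1.64, 1.84 and 2.06. Ezr, which ties actin to the apical membrane, stood at 158, 149 and 122 CPM, 1.42, 1.89 and 1.61 above the rest. Bcam, a laminin receptor, stood at 150, 77.9 and 115 CPM, and Tmem108 at 135, 132 and 122 CPM with ratios of 1.69, 2.08 and 2.11. Bnc1, a zinc finger factor of epithelia, stood at 28.4, 25.0 and 37.7 CPM and was also higher than the rest at each stage (1.22, 1.45 and 1.62).

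Several epithelial junction and adhesion genes of the mesothelial and simple epithelial list were low or absent. Cdh1, which encodes E-cadherin, stood at 0, 0.278 and 0.593 CPM, at or under the floor of 3 UMIs (2.03, 0.834 and 0.890 CPM). Cldn3, a claudin of tight junctions, had no UMI at any stage. Epcam, an epithelial adhesion gene, was lower than in the rest at each stage, with 4.74, 14.7 and 22.2 CPM against 30.4, 46.7 and 122. F11r, a junctional adhesion molecule outside that list, went the other way, at 112, 98.4 and 96.7 CPM against 39.4, 61.3 and 44.1 (1.31, 0.60 and 0.98). Mesothelial genes known from mature linings were at low levels: Muc16 at 1.35, 8.90 and 13.3 CPM, Upk1b at 0, 5.56 and 10.7, and Gpm6a at 2.03, 8.34 and 15.4.

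Myl7 (chr11:5896637-5898782, - strand), best known as the atrial myosin light chain, showed the highest ratio to the rest at E11.5 and E12.5 among genes with at least 100 CPM, the genes of the rule left out. It stood at 58.3, 414 and 464 CPM in the coelomic epithelium and 13.6, 40.9 and 20.8 in the rest, log2 ratios of 1.53, 3.06 and 3.95. Smim1, a small membrane protein, stood at 108, 424 and 386 CPM, and Alcam, an adhesion molecule, at 30.5, 209 and 236.

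**Figure D1:**
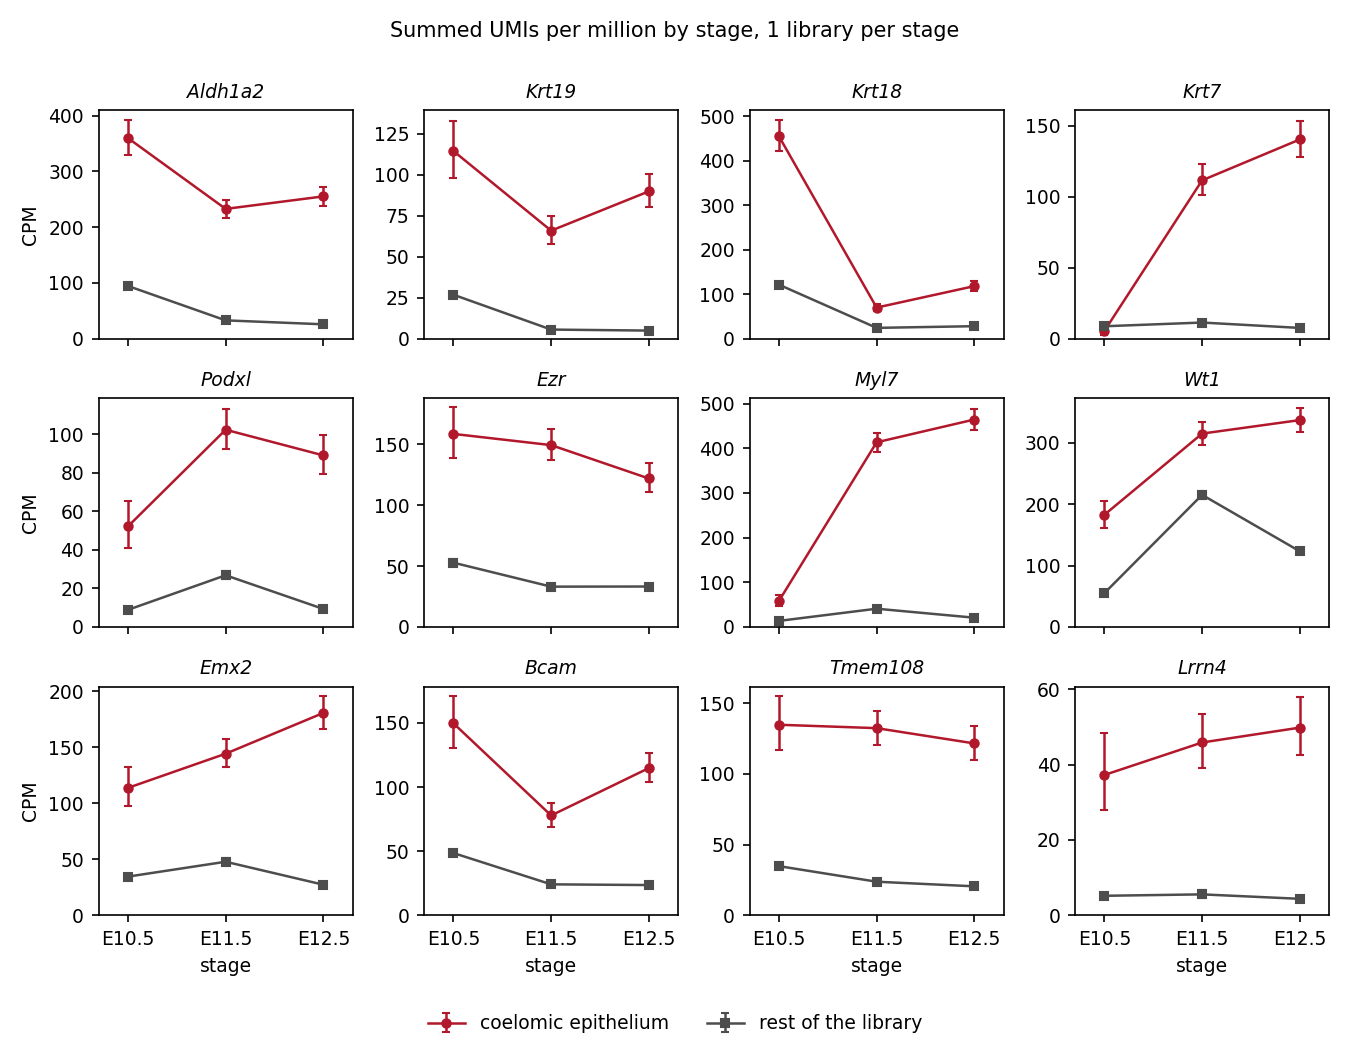
Levels of 12 genes in CPM (vertical axes) at E10.5, E11.5 and E12.5 (horizontal axes) in the coelomic epithelium (red) and in the rest of each library (grey), with exact Poisson 95% intervals as bars. Aldh1a2 stays above the rest at all stages (360, 233 and 255 CPM against 94.4, 32.7 and 25.7), whereas Krt7 separates from the rest only at E11.5 and E12.5.

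Gonadal transcription factors were compared with the rest of each library, which at E10.5 includes tissue from beyond the gonad. Of 17 such genes, 13, 11 and 8 were compared with the rest at E10.5, E11.5 and E12.5. Of these, 4 were higher and 1 lower at E10.5, 2 higher at E11.5 and 4 higher at E12.5. Among all genes compared, 0.988% were higher and 1.11% lower at E10.5, and 1.46% higher and 3.51% lower at E11.5. At E12.5 the shares were 2.47% higher and 4.18% lower. Wt1, a zinc finger factor required for gonad and kidney formation, stood at 183, 315 and 337 CPM, and its ratio to the rest was 1.56 at E10.5, 0.53 at E11.5, where the rest stood at 215 CPM, and 1.38 at E12.5. Emx2 (chr19:59458372-59465357, + strand), a homeobox factor of the genital ridge, stood at 114, 144 and 181 CPM and was higher than the rest throughout (1.47, 1.42 and 2.35). Gata4, a zinc finger factor of gonadal somatic cells, stood at 38.6, 74.0 and 79.2 CPM and was higher than the rest only at E10.5, with ratios of 1.36, -0.47 and 0.03. Gata6, its relative, stood at 85.4, 121 and 101 CPM with ratios of 1.07, 0.78 and 1.43.

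No listed ligand, receptor or response gene passed 2-fold against the rest at E10.5, where 0.988% of all genes were higher and 1.11% lower. Of 22 ligand genes, 9 were compared at E10.5, 15 at E11.5 with 2 higher and 5 lower, and 13 at E12.5 with 3 higher and 3 lower. Of all genes, 1.46% were higher and 3.51% lower at E11.5, and 2.47% higher and 4.18% lower at E12.5. Rspo1, which amplifies WNT signalling, stood at 39.3, 60.3 and 105 CPM, with ratios of 0.29, 1.18 and 2.33. Wnt5a, a non-canonical WNT ligand, stood at 8.81, 86.8 and 156 CPM against 14.7, 24.2 and 34.5 in the rest. Pdgfc, a ligand of the platelet-derived growth factor receptor and not on the list, stood at 40.0, 126 and 87.8 CPM against 34.2, 34.8 and 12.4. Kitl, the ligand of Kit on germ cells, stood at 35.2, 18.6 and 8.31 CPM and was lower than the rest at E11.5 (-1.70) and E12.5 (-1.96). Among 22 receptor and response genes, 13 were compared at E11.5 with 2 higher and 1 lower, and 14 at E12.5 with 1 higher and 2 lower. Id2, an inhibitor of basic helix-loop-helix factors, was higher than the rest at E11.5 (408 against 160 CPM) and E12.5 (259 against 80.1).

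The cells nearest in kind showed where the coelomic epithelium differed within the somatic gonad. Interstitial cells were taken as cells with UMIs of both Pdgfra and Nr2f2, none of Upk3b and fewer than 2 of Sox9, 348 at E11.5 and 810 at E12.5. Against them 90 of 5874 genes were higher (1.53%) and 129 lower (2.2%) at E11.5, and 131 of 6033 higher (2.17%) and 173 lower (2.87%) at E12.5. Myl7 stood at 414 CPM against 42.8 at E11.5 and at 464 against 30.7 at E12.5, ratios of 3.00 and 3.54. Krt7 stood at 112 against 7.09 and 140 against 3.64 CPM, and Hpgd, which breaks down prostaglandins, at 53.4 against 5.26 and 141 against 20.6. Col4a1, a basement membrane collagen, was lower in the coelomic epithelium at E12.5 (44.8 against 187 CPM). Sertoli cells were taken as 500 cells at E12.5 with at least 2 Sox9 UMIs, UMIs of at least 2 further Sertoli genes and no Upk3b. Against them 405 of 6359 genes were higher (6.37%) and 676 lower (10.6%): Tcf21, an interstitial transcription factor, stood at 285 against 3.40 CPM and Wnt5a at 156 against 3.57, whereas Wnt6, a WNT ligand, stood at 5.93 against 620. At E10.5, 72 cells with an Nr5a1 UMI served the same purpose, and 55 of 5225 genes were higher (1.05%) and 50 lower (0.957%) in the coelomic epithelium. Igfbp2, a binder of insulin-like growth factors, stood at 206 against 18.4 CPM, and Amhr2, the receptor of anti-Müllerian hormone, at 6.10 against 109.

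Of the marker lists of other cell types, those of interstitial, pregranulosa, supporting-like and splanchnic mesenchymal cells summed to more in the coelomic epithelium than in the rest at every stage. At E10.5 the median log2 ratios of their compared genes were 0.39, -0.08, 0.05 and -0.07 in that order, against 0.05 over all genes. None of these genes was higher by 2-fold there and 1, a splanchnic one, was lower, where 0.988% of all genes were higher and 1.11% lower. The 8 interstitial markers summed to 518, 1016 and 1159 CPM against 391, 619 and 681 in the rest. Among them Tcf21 stood at 34.5 CPM (25.7 to 45.4), 330 (311 to 349) and 285 (267 to 304). The 12 supporting markers summed to 63.7, 78.1 and 56.1 CPM against 31.4, 1297 and 2282, with Cst9, a cystatin, the most abundant at E10.5 at 48.1 CPM. The 6 pregranulosa markers summed to 131, 95.9 and 124 CPM against 114, 78.1 and 33.7, with Wnt4 the most abundant at E10.5 and Rspo1 later; Foxl2, which defines these cells, had no UMI at any stage. The 8 markers of supporting-like and nephric cells summed to 323, 356 and 504 CPM against 295, 206 and 263, of which Itm2a made up 234, 308 and 445. The 6 steroidogenic markers summed to 59.6, 77.9 and 56.4 CPM against 54.7, 89.4 and 94.96, nearly all of it Fdx1, which is not confined to steroidogenic cells. The 6 germ cell markers summed to 2.03, 10.0 and 158 CPM, of which Dppa5a made up 78.3 CPM at E12.5, and 6 coelomic epithelial cells there held at least 2 germ cell UMIs. The 6 erythroid markers, all globins or haem genes of red cells, summed to 71.8, 123 and 69.7 CPM against 15523, 11196 and 537 in the rest. The 6 splanchnic mesenchyme markers summed to 236, 20.0 and 29.4 CPM against 203, 9.84 and 6.85. Hand1 made up 103 CPM of the sum at E10.5. At E11.5 and E12.5 Hand2 made up 19.7 and 27.9 CPM of it, and Hand1, Foxf2 and Nkx2-3 had no UMI. The endothelial markers summed to 49.5, 92.6 and 46.9 CPM against 73.0, 126 and 82.7. At least 2 endothelial UMIs were held by 14, 68 and 36 coelomic epithelial cells (8.97%, 26.2% and 15%), against 6.44%, 18.6% and 15.8% of the rest. Those of macrophages (at most 1.39 CPM), neural cells (at most 5.42), somites (at most 18.97) and endoderm or pancreas (at most 18.9) were below the rest at every stage. A doublet score marked 3, 0 and 9 coelomic epithelial cells as possible doublets. The part of other cells' RNA in the results was not tested.

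**Figure D2:**
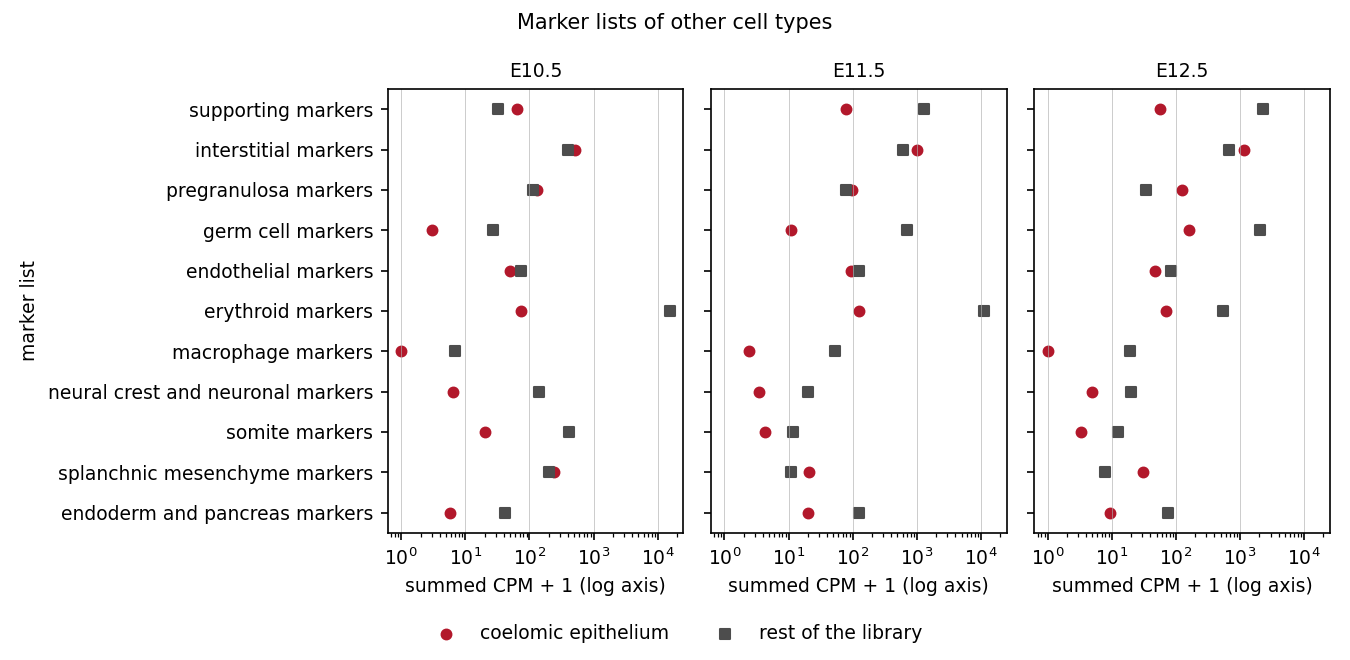
Summed CPM + 1 (log axis) of 11 marker lists of other cell types in the coelomic epithelium (red circles) and the rest of each library (grey squares) at the 3 stages; no error bars are drawn. Erythroid, germ cell and, from E11.5, supporting markers lie well below the rest, and splanchnic mesenchyme markers are high in the coelomic epithelium at E10.5 only (236, 20.0 and 29.4 CPM before adding 1).

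Between E10.5 and E11.5 the coelomic epithelium differed in many genes. Of 6051 genes compared, 272 (4.5%) were at least 2-fold higher and 170 (2.81%) lower at E11.5. With the rule applied to thinned cells the counts were 100 and 55, and with 1 CPM added instead of 10, 300 were lower. In the rest of the libraries 424 of 6210 genes (6.83%) were higher and 234 (3.77%) lower. The median log2 ratio over all genes was -0.15 by total UMIs and -0.03 after trimmed-mean scaling (TMM), under which 324 genes were higher and 132 lower, so ratios are read against -0.15. This comparison and the next share the E11.5 library.

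Genes almost silent at E10.5 headed the list of those higher at E11.5, from which the genes of the rule were left out. Lgals7, a galectin of epithelia, had no UMI at E10.5 and stood at 184 CPM at E11.5 and 151 at E12.5, at least 90.6-fold higher at E11.5 against the floor of 3 UMIs. Amhr2 stood at 6.10, 192 and 135 CPM (log2 ratio 3.65), Dkk1, a secreted WNT antagonist, at 2.03, 114 and 19.6 (3.36), and Atp1b1, a sodium pump subunit, at 18.3, 233 and 91.4 (3.10). Tulp2, Kctd14, Rpp25 and Kcne1l were the others, with ratios of 3.88, 3.50, 3.30 and 2.73, besides Krt7 (2.98) and Tcf21 (2.93). The Nr5a1 limb of the rule applied at E10.5 only. When Nr5a1 was ignored at every stage the ratio of Amhr2 was 2.71, that of Tcf21 2.65 and that of Atp1b1 2.98.

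The transcription factor genes Hand1 and Alx1 headed those lower at E11.5. Hand1 (chr11:57828705-57832818, - strand), a basic helix-loop-helix factor of lateral mesoderm, stood at 103 CPM (87.3 to 121) at E10.5. It had no UMI in the coelomic epithelium at E11.5 or E12.5, and was at least 123-fold lower at E11.5. Foxf1, a forkhead factor of splanchnic mesoderm, stood at 48.1, 0 and 0.297 CPM, at least 57.7-fold lower at E11.5. Alx1, a homeobox factor, stood at 107, 0.556 and 2.08 CPM (-3.47). Among secreted and surface proteins, Sfrp1, a WNT antagonist, stood at 545, 79.0 and 112 CPM (-2.64), Flrt3, a leucine-rich repeat membrane protein, at 114, 13.1 and 17.5 (-2.42), and Dlk1, a paternally expressed Notch-family ligand, at 1509, 273 and 538 (-2.43). Igdcc3, Eno3, a muscle enolase, Runx1t1, a transcriptional corepressor, and Bex1 had ratios of -3.43, -3.04, -2.69 and -2.57, and Krt18 had -2.54.

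**Figure D3:**
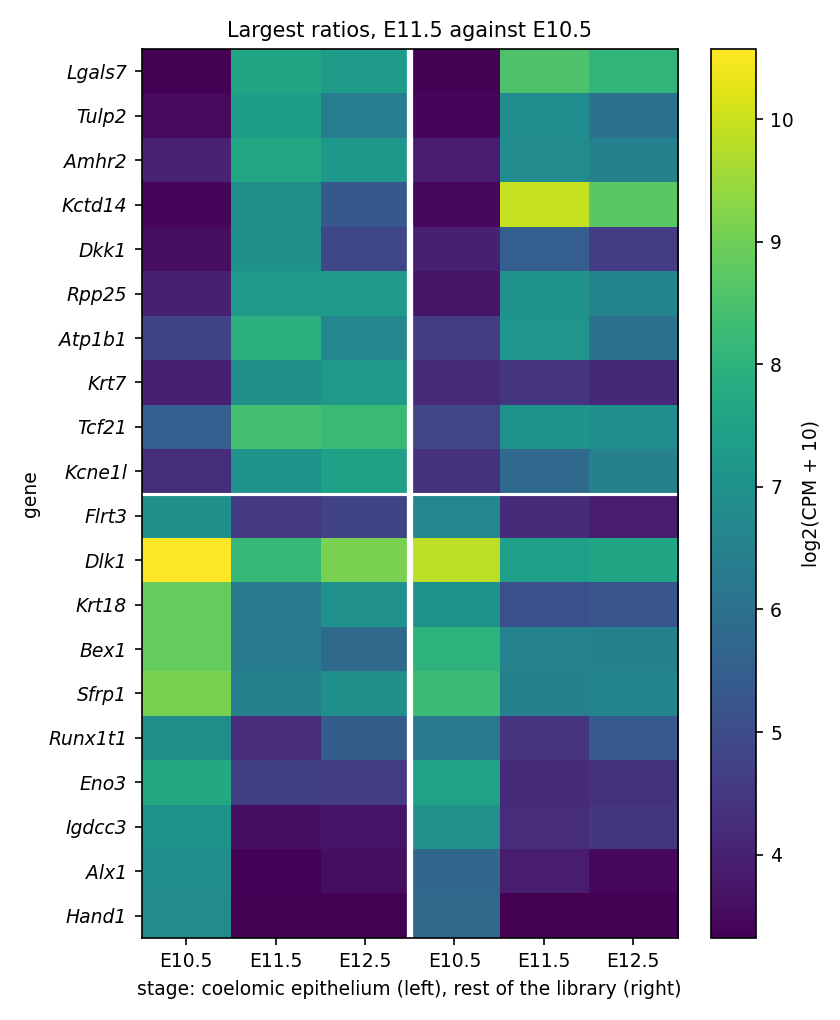
Heat map of log2(CPM + 10) at the 3 stages (columns) for the 10 genes most higher and the 10 most lower at E11.5 than at E10.5 in the coelomic epithelium (rows; genes of the rule and genes under 100 CPM left out), which is shown at the left, with the rest of each library at the right. Lgals7, Tulp2 and Kctd14 are near 0 CPM at E10.5, and Hand1 and Alx1 near 0 CPM at E11.5 and E12.5.

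The lists described the same step by role. In the coelomic epithelium 4.5% of all genes compared were higher and 2.81% lower at E11.5. Among 11 gonadal transcription factors compared, 2 were higher and 3 lower at E11.5, with a median log2 ratio of 0.32. The 2 higher were Tcf21 and Nr0b1, an orphan receptor of the gonad and adrenal (1.35, 28.9 and 8.60 CPM), and those lower included Osr1, an early marker of intermediate mesoderm (62.3, 1.11 and 3.26 CPM, -2.70), and Nr2f1, an orphan receptor (84.0, 14.2 and 13.7 CPM, -1.96). Wt1, Emx2, Gata4 and Gata6 moved by less than 2-fold. Of 12 ligands compared, Wnt5a was higher (2.36) and Bmp4 (138, 20.3 and 26.1 CPM, -2.28) and Wnt4 (54.9, 18.1 and 6.23 CPM, -1.21) were lower. Of 14 receptor and response genes, Lgr4, a receptor of R-spondins (1.54), and Hey1, a Notch target (1.30), were higher, and Id3, a BMP target (787, 380 and 230 CPM, -1.03, or -0.89 with TMM), and Rarb, a retinoic acid receptor induced by retinoic acid (-1.30), were lower. Of 8 interstitial markers, 7 were compared and 3 were higher, among them Tcf21 and Snai2, a zinc finger repressor (19.6, 115 and 88.1 CPM, 2.08). Of 10 genes of the epithelial to mesenchymal transition, 8 were compared and 3 were lower: Twist2 (-2.44), Twist1 (-1.61) and Cdh2 (-1.09, or -0.97 with TMM). Vim, the mesenchymal intermediate filament, stood at 438, 518 and 497 CPM in the coelomic epithelium and 418, 1155 and 1021 in the rest.

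Homeobox genes of the Hox clusters, which set position along the body axis, differed by cluster. Of 38 genes, 16 were compared in the coelomic epithelium, 3 higher and 10 lower at E11.5, with a median log2 ratio of -1.56. Of all genes there, 4.5% were higher and 2.81% lower, with a median of -0.15. All 3 that were higher lie in the Hoxd cluster: Hoxd8 (13.6, 50.9 and 37.4 CPM, 1.37), Hoxd9 (49.5, 267 and 256 CPM, 2.22) and Hoxd10 (6.78, 57.0 and 48.0 CPM, 2.00). Those lower were in the Hoxa, Hoxb and Hoxc clusters and included Hoxa9 (74.5, 4.17 and 2.67 CPM, -2.58), Hoxa7 (156, 29.5 and 22.8 CPM, -2.07) and Hoxc9 (123, 25.6 and 38.0 CPM, -1.91); Hoxc8, at -1.02, had -0.89 with TMM. In the rest, 16 were compared and 15 were lower, with none higher, where 6.83% of all genes were higher and 3.77% lower.

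The cells that the rule took as coelomic epithelium at E10.5 were not uniform. Of the 156, 51 (32.7%) held a UMI of Hand1 or Foxf1, compared with 0 of 260 at E11.5 and 1 of 240 at E12.5. Hand1 was found in 26.9% of the 156, in 14.5% of the rest of the E10.5 library and in none of the 56 endothelial cells, and Foxf1 in 20.5%, 17.0% and 5.36%. The E10.5 library held tissue from beyond the gonad, and the place of the 51 cells, on the gonad or elsewhere along the body cavity, cannot be told from these data. The E10.5 values given above cover both kinds of cell. The median depth was 9170 UMIs in these 51 cells and 9769 in the other 105. Against the other 105, 50 of 4043 genes were higher (1.24%) and 26 lower (0.643%). This split was made after the values were seen, and the genes named in the next 2 paragraphs were chosen from it.

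Cells with Hand1 or Foxf1 had higher levels of Mab21l2, Postn and Acta2, among others. Mab21l2 stood at 158 CPM against 7.03 in the other cells (log2 ratio 3.31), Postn, a matricellular protein, at 186 against 23.1 (2.56), and Acta2, smooth muscle actin, at 144 against 17.1 (2.51). Krt8 stood at 352 against 69.3 CPM (2.19), Hand2, the relative of Hand1, at 95.9 against 20.1 (1.82), and Bmp4 at 219 against 98.4 (1.08).

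The other 105 cells had higher levels of Emx2, Aldh1a2, Wnt4, Osr1 and Alx1. Emx2 stood at 12.51 CPM with Hand1 or Foxf1 and at 163 without (-2.94), Aldh1a2 at 102 and 484 (-2.14), Wnt4 at 10.4 and 76.3 (-2.08), Osr1 at 14.6 and 85.3 (-1.95), and Alx1 at 37.5 and 141 (-1.66). Lhx9, a gene of the rule, stood at 22.9 and 128 CPM. Upk3b, at 198 and 273 CPM, Krt18, at 509 and 430, Krt19, at 98.0 and 122, and Ezr, at 171 and 153, were within 2-fold of each other in the 2 sets. In cells thinned to 4000 UMIs, Emx2 was found in 1 of 28 cells with Hand1 (3.57%, 0.0904 to 18.3) and in 44 of 125 without (35.2%, 26.9 to 44.2), and Aldh1a2 in 4 of 28 (14.3%, 4.03 to 32.7) and 76 of 125 (60.8%, 51.7 to 69.4). With the 51 cells left out, the E11.5 to E10.5 ratio of Krt8 moved from -1.89 to -0.78, that of Bmp4 from -2.28 to -1.84, and Krt18 stayed at -2.46, with 279 genes higher and 129 lower.

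**Figure D4:**
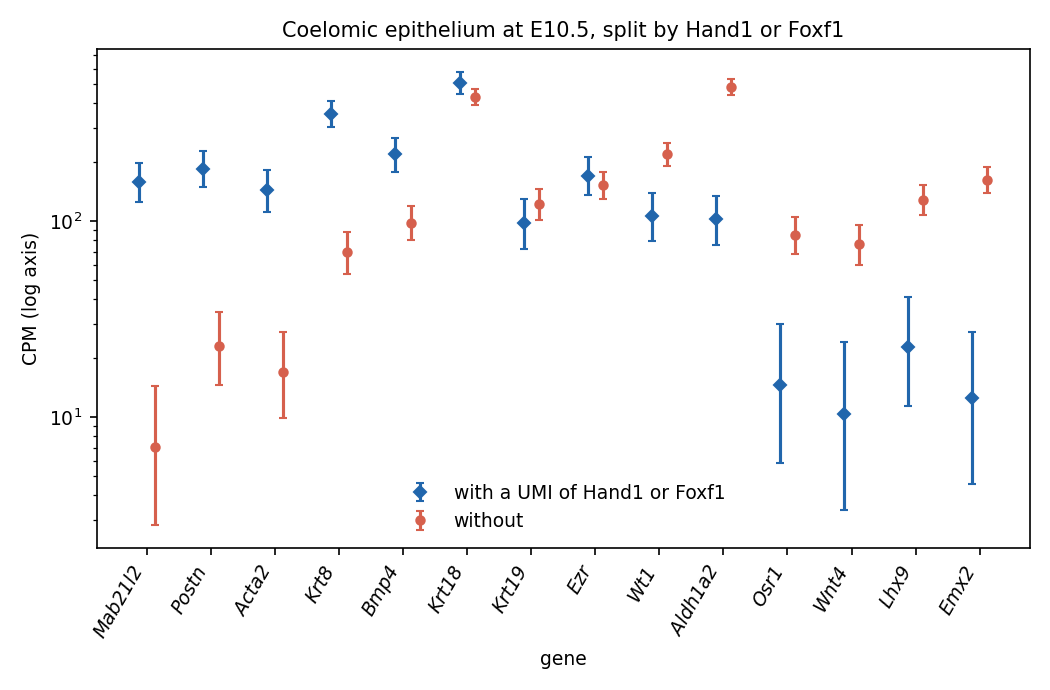
CPM (log axis) of 14 genes in E10.5 coelomic epithelial cells with a UMI of Hand1 or Foxf1 (51 cells) and without (105 cells), with exact Poisson 95% intervals as bars. Mab21l2, Postn and Acta2 are higher with Hand1 or Foxf1, Emx2, Lhx9, Wnt4, Osr1 and Aldh1a2 without, and Krt18, Krt19 and Ezr lie close together.

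Between E11.5 and E12.5 far fewer genes differed. In the rest 49 of 5989 genes (0.818%) were at least 2-fold higher and 47 (0.785%) lower at E12.5. In the coelomic epithelium 23 of 5800 (0.397%) were higher and 24 (0.414%) lower, or 48 and 57 with 1 CPM added instead of 10. Both germ cell markers that could be compared were among those higher, Dppa5a (4.45 and 78.3 CPM, 2.61) and Dppa3 (2.78 and 40.9 CPM, 1.995), and 3 of the 240 cells at E12.5 also met the rule for germ cells, with UMIs of at least 4 germ cell markers; the part of germ cell RNA was not tested. Dkk1 (chr19:30545863-30549665, - strand) had the lowest ratio (-2.06) among genes with at least 100 CPM at one of the stages, followed by Kctd14 (110 and 30.0 CPM, -1.59). Ldha, lactate dehydrogenase, stood at 1096, 1449 and 561 CPM at the 3 stages (-1.35), and Atp1b1 had -1.26. Slc16a3, a lactate exporter (133, 109 and 47.2 CPM), Pfkl, a phosphofructokinase (85.4, 100 and 43.0 CPM), and Id1, a BMP target (232, 222 and 103 CPM), had ratios of -1.06, -1.06 and -1.04. Tulp2 (-0.99), Tpi1, triose phosphate isomerase (579, 786 and 392 CPM, -0.99), and Nme2 (-0.97) lay just inside 2-fold.

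Several of these act in glycolysis, so a list of 15 glycolytic genes was drawn up after they were seen. Of 13 compared, the 3 that were lower at E12.5 were Ldha, Slc16a3 and Pfkl, the genes that had prompted the list, where 0.414% of all genes were lower. None had a ratio above 0 and the median was -0.77. The rest of the libraries had a median of -0.66 over 14 genes, 4 of them lower, where 0.785% of all genes were lower. The interstitial cells had -0.65 over 13 genes with 1 lower, where 41 of 5910 genes (0.694%) were lower. The shift was therefore not confined to the coelomic epithelium.

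The 10 genes with the highest ratios at E12.5, among those with at least 100 CPM, included immediate early genes. Fos stood at 168, 89.5 and 297 CPM (1.63), Egr1 at 72.5, 45.0 and 122 (1.26), and Jun at 394, 249 and 462 (0.87). These genes also respond to tissue dissociation. Of 10 dissociation stress genes, 8 were compared and 3 were higher in the coelomic epithelium, Fos and Egr1 among them. The median was 0.77, and 0.397% of all genes were higher. None of 7 dissociation stress genes passed 2-fold in the rest, with a median of -0.37. Within the E12.5 library, none of 8 passed 2-fold in the coelomic epithelium against the Sertoli cells, with a median of -0.08. There 6.37% of all genes were higher and 10.6% lower. Against the interstitial cells 2 of 8 were higher, with a median of 0.68, where 2.17% of all genes were higher. The summed level of the 10 genes was 963, 623 and 1240 CPM in the coelomic epithelium and 1041, 982 and 733 in the rest. The part of dissociation in the difference was not tested. Hpgd stood at 2.03, 53.4 and 141 CPM (1.25), Meg3, a maternally expressed long non-coding RNA, at 1477, 371 and 792 (1.07), and Dlk1, of the same imprinted cluster, had 0.96. Gm10320 had 1.23. Cyr61, a secreted matricellular protein (0.94), Mfap4, a microfibril protein (0.93), and Ptn, a secreted growth factor (0.83), like Jun and Dlk1, lay inside 2-fold.

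**Figure D5:**
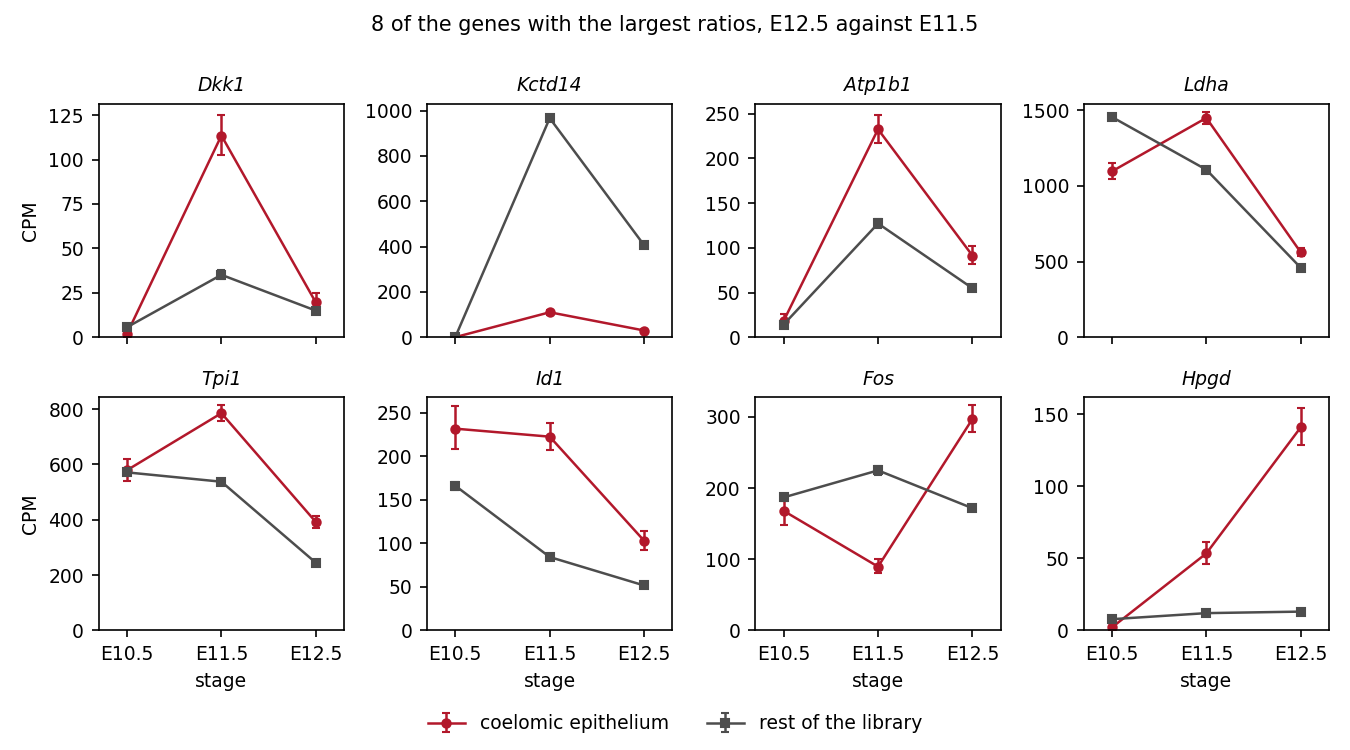
CPM (vertical axes) of 8 genes at the 3 stages (horizontal axes) in the coelomic epithelium (red) and the rest of each library (grey), with exact Poisson 95% intervals as bars. In the coelomic epithelium Dkk1 and Kctd14 peak at E11.5, Ldha is lowest at E12.5 (561 CPM), and Hpgd is higher at each later stage (2.03, 53.4 and 141 CPM).

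Pathway genes past 2-fold at this step, where 0.397% of all genes were higher and 0.414% lower, were as follows. Of 10 ligands compared, Pdgfa, a platelet-derived growth factor, was higher (12.9, 24.8 and 68.8 CPM, 1.18) and Wnt6 lower (14.2, 34.2 and 5.93 CPM, -1.47), while the rest stood at 7.77, 130 and 165 CPM of Wnt6. Of 12 receptor and response genes, Ptch1, the Hedgehog receptor and target, was higher (22.4, 12.51 and 36.2 CPM, 1.04) and Id1 lower. Of 10 mesothelial genes compared, Aldh1a1, another retinoic acid enzyme, was the only one past 2-fold, at 0, 60.9 and 8.90 CPM (-1.91). The rest stood at 138 CPM of Aldh1a1 at E11.5 and 217 at E12.5, so it was lower in the coelomic epithelium at both stages.

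At E11.5 and E12.5 the coelomic epithelium held cells with and without Nr5a1, which were compared after thinning to 4000 UMIs; the share of cells with an Nr5a1 UMI in endothelial cells, given above, bears on this division. At E11.5 the 74 cells with an Nr5a1 UMI and the 163 without differed in 2 of 2716 genes higher (0.0736%) and 8 lower (0.295%). At E12.5 the 63 cells with and the 177 without differed in 1 of 2759 genes higher (0.0362%) and 11 lower (0.399%). The genes that were higher with Nr5a1, named after their values were seen, were Mtfr1l (125 against 56.7 CPM) and Gm2694 (139 against 50.6) at E11.5 and Tmed1 (99.2 against 38.1) at E12.5. In that order they rested on 37, 41 and 25 UMIs with Nr5a1 and 37, 33 and 27 without. Among genes of the lists, those past 2-fold were Dppa5a, a germ cell marker (3.97 against 73.4 CPM, -2.58), and Itm2a, a membrane protein (282 against 575 CPM, -1.003), both lower with Nr5a1 at E12.5. Without thinning the counts were 6 higher and 0 lower of 5717 genes at E11.5 and 0 and 5 of 5875 at E12.5. Tmed1 therefore did not pass 2-fold without thinning, and neither did the genes that were lower at E11.5.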

How the data were processed

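The deposited files hold raw UMI counts per gene and cell, made by the authors with Cell Ranger 3.0.2 per the labels (6.0.0 per the file header) against mm10; the cells came from papain-dissociated gonads and the 10x 3' v2 kit. No column was left unused (0). Cells with 1000 to 4000 genes and under 10% mitochondrial UMIs (13 genes) were kept at E10.5, 500 to 5000 and under 20% at E11.5, and 2000 to 5000 and under 8% at E12.5, leaving 3837 of 4473, 2101 of 2449 and 2764 of 3176 barcodes. Of 31053 features 99.9% were found in GENCODE M21; 35 symbols have several identifiers.

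UMIs were summed per group and divided by their total. Doublets were scored with Scrublet (scanpy 1.11.5, Python 3.11.15), taking the expected number of top scores as calls, and kept. TMM factors came from edgeR 4.0.16 in R 4.3.3; no model was fitted. Thinning to 4000 UMIs left out 3, 23 and 0 coelomic epithelial cells. The ratio step was tested on simulated data for E12.5 against E11.5. The endothelial cells held UMIs of at least 2 of Pecam1, Cdh5, Emcn and Tek. Xist and Y-linked genes were left out.

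The cells and the 24 gene lists were chosen with earlier results of these data known. Named genes were those of the rule and lists, the 10 per direction with the largest ratio between stages and the 12 with the largest ratio to the rest, with at least 100 CPM in the higher group, and the most abundant gene of each marker list. The comparison groups, thinning depth, gene pairs, the Hand1 or Foxf1 split, the glycolysis list, the motifs and some alternatives were chosen after seeing the data. A few genes of these lists are not reported here.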

Additional observations from a re-analysis of the deposited data

Results flagged for a closer look

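Cst9, a cystatin that marks supporting cells, was flagged because its ratio between the coelomic epithelium and the rest of the library turned direction between stages. In order of stage it stood at 48.1, 6.95 and 8.01 CPM in the coelomic epithelium and at 6.96, 437 and 832 CPM in the rest, log2 ratios of 1.776, -4.722 and -5.546. From E10.5 to E11.5 its log2 ratio was -1.777 in the coelomic epithelium and 4.721 in the rest. With 1 library per stage the difference was not tested.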

How the results depend on the processing

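The share of coelomic epithelial cells followed the rule. It was 2.241%, 8.567% and 6.368% at E10.5, E11.5 and E12.5 with at least 2 Upk3b UMIs required, 1.069% at E10.5 and 10.85% at E11.5 with at least 2 partner genes, 8.71% at E11.5 and 6.404% at E12.5 with Nr5a1 cells left out at every stage, 2.056%, 7.954% and 5.391% on thinned cells, and 7.219% at E10.5 with no partner required. Counts of genes past 2-fold that moved by over 1.5 times were those of the E10.5 coelomic epithelium against the rest with at least 2 partner genes (99 higher, 112 lower) and on thinned cells (113 higher, 136 lower), and those of E11.5 against E10.5 on thinned cells (100 higher, 55 lower). The number of genes compared under these settings is not given here, so the counts are not shares. With a pseudocount of 1 CPM, 300 genes were lower at E11.5 than at E10.5, 48 were higher and 57 lower at E12.5 than at E11.5, and 103, 148 and 249 were higher than in the rest at the 3 stages. As mean CPM per cell, 18 genes were higher and 31 lower at E12.5 than at E11.5. The comparison of cells with and without Nr5a1 gave 6 higher and 0 lower at E11.5 and 0 higher and 5 lower at E12.5 on unthinned cells. With Hand1 and Foxf1 cells left out, the ratios of Hand1 and Foxf1 between E11.5 and E10.5 were 0 by construction. Of the alternative values of shares and counts, 148 stayed within the limits and 27 moved; of those of single genes, their ratios and their shares of cells, 1885 stayed, 256 moved and 2 turned, the Hand1 and Foxf1 ratios just named. Other causes were not tested. No paired analysis was possible because each stage has 1 library and the labels give no replicate numbers, and for the same reason no library could be left out. A count of 3 UMIs set the floor at 2.03, 0.834 and 0.890 CPM.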

Other observations

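The cell cycle and matrix lists are given beside the share of all genes past 2-fold in the coelomic epithelium, 4.5% higher and 2.81% lower at E11.5 than at E10.5, and 0.397% higher and 0.414% lower at E12.5 than at E11.5. Of 16 cell cycle genes, 15 were compared between E10.5 and E11.5 and only Ccnd2, a G1 cyclin, passed 2-fold, at 358, 165 and 162 CPM at E10.5, E11.5 and E12.5 (log2 ratio -1.07 at E11.5, or -0.93 with TMM), and none of 15 did between E11.5 and E12.5. At E10.5 Ccnd2 stood at 690 CPM in the 51 cells with Hand1 or Foxf1. In the other 105 it stood at 199 CPM, within 2-fold of its E11.5 level. Top2a, a topoisomerase of dividing cells, stood at 289, 225 and 352 CPM against 278, 191 and 306 in the rest. Of 14 basement membrane and matrix genes, 10 were compared between E10.5 and E11.5 with none past 2-fold by total UMIs and Sparc at 1.06 with TMM, and 9 between E11.5 and E12.5, where Col18a1, a basement membrane collagen, was higher (64.4, 36.4 and 88.1 CPM, 1.08). Sparc, a collagen-binding glycoprotein, had the highest CPM of them, at 656, 1247 and 856 CPM against 369, 1509 and 1720 in the rest.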
